A study of Mus musculus with 13 samples.

Results

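A list of 56 genes of mitosis was followed in the tumors of the study, namely mitotic kinases, spindle checkpoint and chromosomal passenger proteins, centromere and kinetochore proteins, mitotic kinesins, condensin subunits and topoisomerase II, separase and securin, and spindle midzone and cytokinesis proteins. The members were the genes of a fixed list of symbols, looked up among the 21100 genes of the gene-level table. All 56 were found with a value in all 13 tumors and had enough reads to be tested. The list was chosen with earlier results of these data known. The paper also reports higher expression of cell division gene sets in the transplanted tumors. The counts below therefore describe the list and are not an independent test. The comparison asked how far the transplantable basal cell carcinoma (BCC) model resembles the induced tumors from which it was made. GEM-BCC tumors (n = 9) arose in the skin of female Ptch1+/- K14-CreER2 p53fl/fl mice given 3 intraperitoneal injections of 300 µg tamoxifen and X-rays of 4 Gy, and were intradermal. Cre was driven by the keratin 14 promoter, so recombination was directed to basal keratinocytes. Tp-BCC tumors (n = 4, each in its own mouse) grew under the skin of the right flank of female Ptch1+/-p53fl/fl mice that received 2000000 cells. The first recipients were given GEM-BCC cells, and by the study's methods later ones received cells of the previous Tp-BCC generation. Every Tp-BCC tumor descended from 1 single GEM-BCC tumor, so the 4 replicates sample 1 line. The 9 GEM-BCC tumors came from 7 mice, with GEM2 and GEM3 from one mouse and GEM7 and GEM8 from another. Batch 1 of the labels holds every GEM-BCC tumor and batch 2 every Tp-BCC tumor, so batch and model cannot be told apart in any comparison given here. The labels give no ages. The tables held 28075317 to 32629102 counts per GEM-BCC tumor and 15388027 to 17494912 per Tp-BCC tumor, so low values are less precise in the latter.

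Before a cell divides, its chromosomes are compacted by condensin and untangled by topoisomerase II, and a kinetochore is built on the centromere of each chromatid to hold spindle microtubules. The spindle checkpoint delays separation until all kinetochores are attached, then the Cdc20-activated ubiquitin ligase releases separase, and the midzone and a contractile ring split the cell. Most of these genes are transcribed in G2 and M phase, under FOXM1 and B-MYB and the repressor complex DREAM, through CCAAT boxes and an element called the CHR (cell cycle genes homology region). In a tumor their transcripts are used as a measure of how many cells are cycling. In bulk tissue, fewer cells of a type and less RNA per cell cannot be told apart.

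Levels are given as CPM (counts-per-million units, a gene's share of its tumor's counts after TMM scaling of library sizes), and differences as log2 fold changes of Tp-BCC over GEM-BCC with their standard error (SE). Every value given with an SE is on this log2 scale. A gene passed when its adjusted p (edgeR quasi-likelihood test, Benjamini-Hochberg over all 14390 genes tested) was under 0.05. Of the 56 members, 23 passed as higher in Tp-BCC tumors (41.1%, against 11.1% of all genes tested) and 0 passed as lower (background 8.35%). At an unadjusted p under 0.05, 33 members passed, all with a higher estimate, against 18.4% of all genes, and DESeq2 called 24 members higher (background 13.1%) and 0 lower. The estimate was above 0 for all 56 members (48.6% of all genes) with a median of 1.00, from 0.17 for Zwint to 3.37 for Ska1. The median over all genes tested was −0.03. In 12 members every Tp-BCC tumor lay above every GEM-BCC tumor (21.4%, background 5.5%). With a log2 fold change above 2 also required, 2 members passed, Ska1 and Plk1 (background 2.36%). The counts by role given below rest on few genes each, and differences between roles were not tested.

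**Figure D1:**
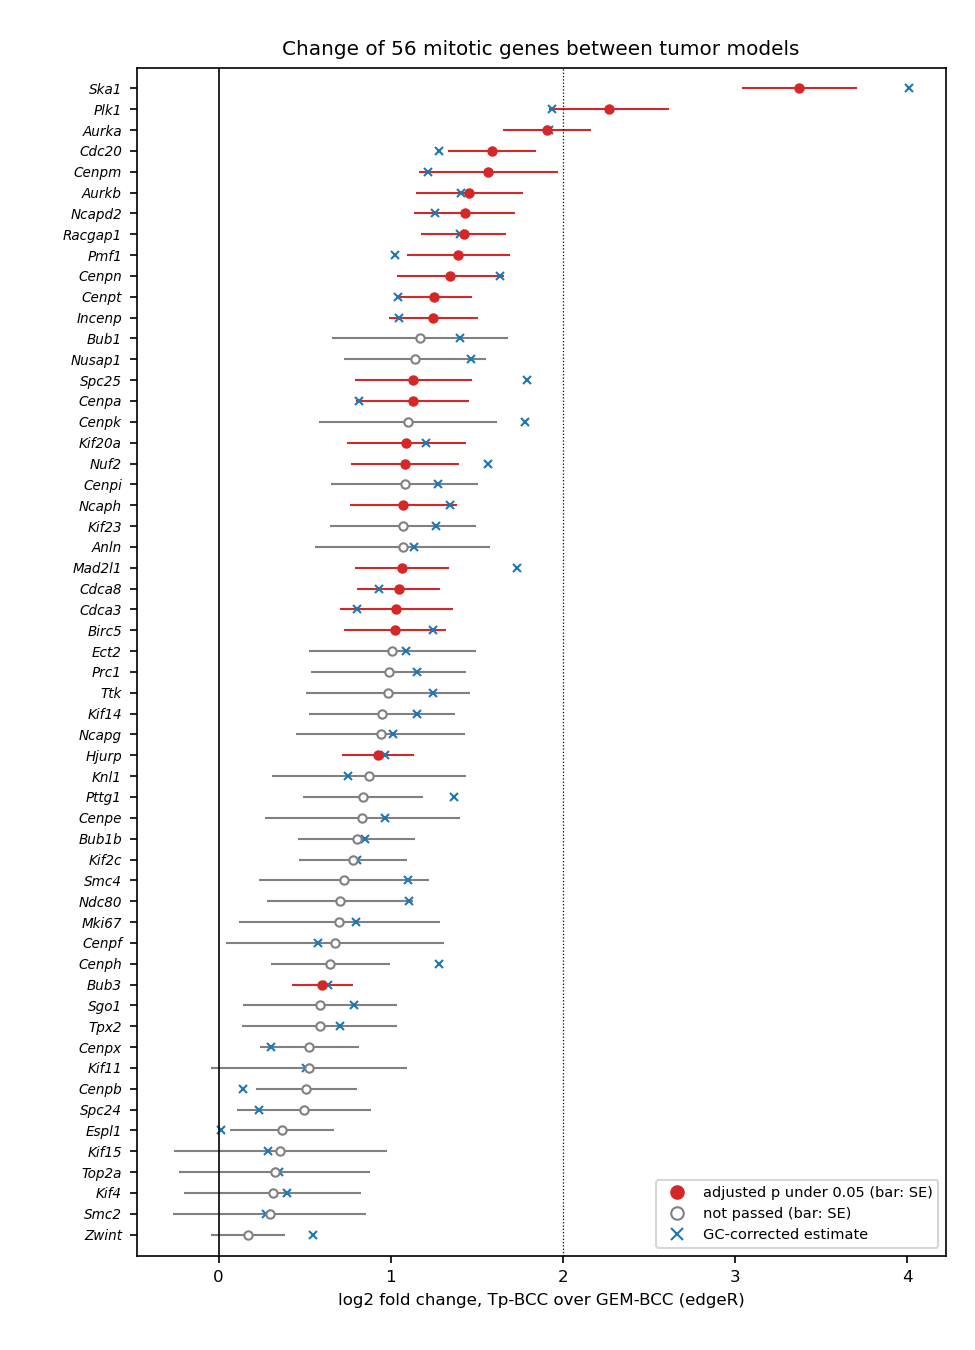
Log2 fold change of each of the 56 members between 4 Tp-BCC and 9 GEM-BCC tumors (circles, bars: SE), with filled circles for the 23 members with an adjusted p under 0.05 and crosses for the estimate after correction for transcript GC content. All circles lie to the right of 0, and only Ska1 and Plk1 lie beyond the dotted line at 2.

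The level of the members differed among the Tp-BCC tumors as well as between models. Averaged over the 56 members, log2 CPM minus its average over the 13 tumors was 0.97 in TP1, 0.02 in TP2, 1.13 in TP3 and 0.17 in TP4. In the GEM-BCC tumors it ran from −1.24 in GEM6 to 0.47 in GEM8, with a second high value of 0.32 in GEM3. TP1 and TP3 therefore lay above all GEM-BCC tumors, whereas TP2 and TP4 lay within their range. The summed CPM of the members did not overlap, with 3687 to 4491 for Tp-BCC and 1230 to 3038 for GEM-BCC. This sum is not corrected for GC content and gives abundant genes the most weight. One of these is Cenpb, at 241 CPM in TP1 and 754 in TP4, which did not pass. TP2 and TP4 also differed from TP1 and TP3 by the GC content of the genes they hold at high level, which is described after the single genes.

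**Figure D2:**
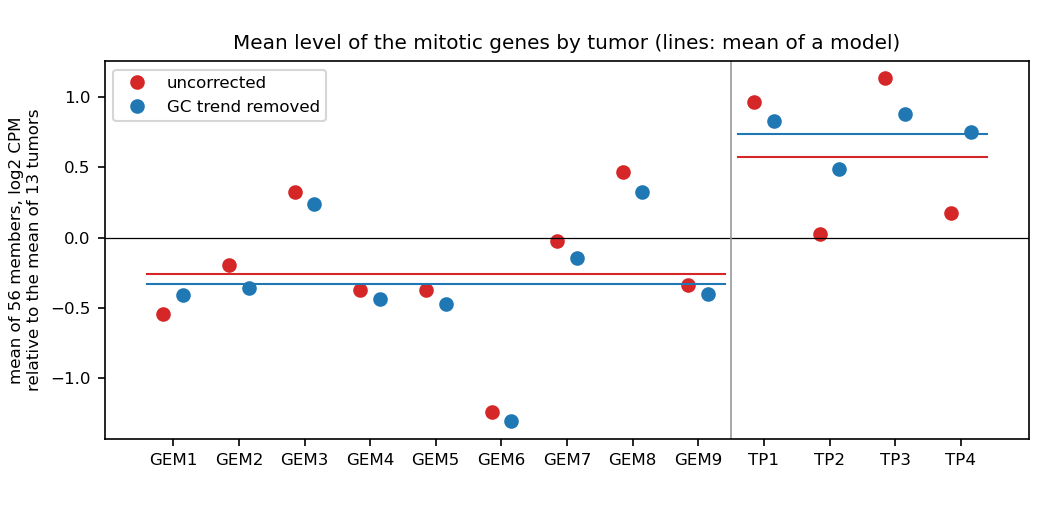
Mean level of the 56 members in each tumor, as log2 CPM minus the average over the 13 tumors, before (red) and after (blue) removal of the trend with transcript GC content, with lines at the mean of each model. Before removal TP2 (0.02) and TP4 (0.17) lie below GEM8 (0.47), and after it all 4 Tp-BCC tumors (0.49 to 0.88) lie above GEM8 (0.32).

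The promoters of 5 members are shown because mitotic genes share 2 promoter elements. They are the kinase Aurka, the checkpoint target Cdc20 and the condensin subunit Ncapd2, which passed in Tp-BCC tumors, and Top2a and Mki67, which varied widely between Tp-BCC tumors and did not pass. Each sequence is the 250 bases before the annotated start, from RefSeq on GRCm38.p6, 5′ to 3′ on the strand of the gene, with CCAAT boxes (CCAAT or its complement ATTGG) and CHR elements (TTTGAA, its complement TTCAAA, or TTCGAA) in capitals. The windows lie at chr2:172370571-172370820 (minus strand) for Aurka, chr4:118437344-118437593 (minus strand) for Cdc20, chr6:125191587-125191836 (minus strand) for Ncapd2, chr11:99024190-99024439 (minus strand) for Top2a and chr7:135716380-135716629 (minus strand) for Mki67.
Aurka: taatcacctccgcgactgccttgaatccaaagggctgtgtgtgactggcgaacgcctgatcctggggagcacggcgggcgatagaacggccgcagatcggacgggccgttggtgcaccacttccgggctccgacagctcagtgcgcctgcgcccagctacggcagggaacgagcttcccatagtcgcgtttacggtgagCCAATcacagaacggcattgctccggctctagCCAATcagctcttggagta
Cdc20: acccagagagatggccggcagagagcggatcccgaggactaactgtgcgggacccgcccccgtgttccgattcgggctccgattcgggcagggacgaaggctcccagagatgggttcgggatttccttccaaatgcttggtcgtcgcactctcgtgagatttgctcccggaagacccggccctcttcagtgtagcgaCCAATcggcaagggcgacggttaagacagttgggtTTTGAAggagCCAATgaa
Ncapd2: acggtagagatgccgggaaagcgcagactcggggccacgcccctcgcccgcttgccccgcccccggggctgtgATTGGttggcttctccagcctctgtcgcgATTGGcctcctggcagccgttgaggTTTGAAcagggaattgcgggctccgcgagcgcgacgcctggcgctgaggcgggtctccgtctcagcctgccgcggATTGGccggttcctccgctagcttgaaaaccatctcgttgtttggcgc
Top2a: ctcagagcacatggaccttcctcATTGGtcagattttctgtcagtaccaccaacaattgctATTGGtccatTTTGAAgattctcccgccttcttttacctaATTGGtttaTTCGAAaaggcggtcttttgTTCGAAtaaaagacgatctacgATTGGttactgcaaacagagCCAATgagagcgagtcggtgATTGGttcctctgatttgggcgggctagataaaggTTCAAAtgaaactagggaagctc
Mki67: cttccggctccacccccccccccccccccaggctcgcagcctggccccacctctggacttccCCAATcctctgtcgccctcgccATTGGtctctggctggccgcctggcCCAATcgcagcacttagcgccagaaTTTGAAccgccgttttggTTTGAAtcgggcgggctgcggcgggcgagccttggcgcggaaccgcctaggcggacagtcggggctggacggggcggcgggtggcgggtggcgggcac

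The Top2a window held 6 CCAAT boxes and 4 CHR elements, that of Mki67 held 3 and 2, that of Ncapd2 held 3 and 1, that of Cdc20 held 2 and 1, and that of Aurka held 2 CCAAT boxes and 0 CHR elements. A window was listed for 49 of the 56 members, and not for Aurkb, Incenp, Kif20a, Ska1, Smc4, Spc24 and Tpx2. Both strands were searched, and matches that overlap were counted separately. A CCAAT box was found in 32 of the 49 (65.3%), against 36.3% of the 11441 tested genes with a window. At least 2 boxes were found in 34.7% of members and 13% of tested genes. A CHR element was found in 34.7% of members and 12.2% of tested genes, and both elements in 28.6% and 4.96%. A CCAAT box was found in 13 of the 19 that passed and had a window (68.4%) and in 19 of the 30 that did not pass (63.3%), and a CHR element in 31.6% and 36.7%. A match is a description of these letters and not evidence of binding.

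The mitotic kinases start and order the steps of division, and 3 of 5 passed. Aurka, which matures centrosomes and builds the spindle, stood at 54.9, 73.6, 45 and 57.3 CPM in TP1 to TP4, while the GEM-BCC tumors ran from 5.98 to 22.3 CPM (median 15.9). The groups did not overlap, and Aurka rose by 1.91 ± 0.26 (SE; adjusted p = 0.000148). Aurkb, the catalytic subunit of the chromosomal passenger complex that corrects faulty attachments, had 55.9, 85.1, 55.4 and 70.8 CPM in TP1 to TP4 and a range of 8.64 to 49.7 CPM with a median of 21.8 in GEM-BCC tumors. Each Tp-BCC tumor again exceeded each GEM-BCC tumor, and the estimate was 1.46 ± 0.31 (SE; adjusted p = 0.00477). Plk1, a kinase of mitotic entry, kinetochores and cytokinesis, was at 119, 224, 99.9 and 244 CPM in TP1 to TP4, against a lowest, median and highest value of 11.8, 28.4 and 61.2 CPM in the GEM-BCC tumors. The estimate was 2.27 ± 0.35 (SE; adjusted p = 0.000498), and TP2 and TP4 were the highest tumors. Without TP4 the log2 fold change of Plk1 was 2.00, just under the fold threshold. The checkpoint kinases did not pass. Ttk (Mps1), which starts checkpoint signalling, stood at 31.8, 4.11, 34.4 and 10.9 CPM in TP1 to TP4, while the GEM-BCC tumors ran from 4.22 to 19.8 CPM (median 9.34). Bub1, which marks the inner centromere, had 39.4, 4.05, 49.9 and 18.9 CPM in TP1 to TP4 and a range of 4.49 to 24.3 CPM with a median of 11.9 in GEM-BCC tumors. For both genes TP1 and TP3 lay above every GEM-BCC tumor while TP2 was the lowest of the 13 tumors, and the log2 fold changes were 0.98 ± 0.48 (SE; adjusted p = 0.156) for Ttk and 1.17 ± 0.51 (SE; adjusted p = 0.119) for Bub1.

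Of the spindle checkpoint proteins and their target, 3 of 4 passed. Cdc20, the activator of the anaphase-promoting complex, was at 71.3, 133, 67.9 and 142 CPM in TP1 to TP4, against a lowest, median and highest value of 17.4, 33.1 and 44.6 CPM in the GEM-BCC tumors. It rose by 1.59 ± 0.26 (SE; adjusted p = 0.000699), with no overlap. Mad2l1 (MAD2), which binds and holds Cdc20, stood at 97.7, 55.2, 86.3 and 83.9 CPM in TP1 to TP4, while the GEM-BCC tumors ran from 22.6 to 71.6 CPM (median 33.4). TP2 was within the range of GEM-BCC tumors and the other Tp-BCC tumors above it, and the estimate was 1.07 ± 0.27 (SE; adjusted p = 0.0134). Bub3, the adaptor that brings BUB proteins to the kinetochore, had 162, 229, 153 and 244 CPM in TP1 to TP4 and a range of 111 to 169.7 CPM with a median of 127 in GEM-BCC tumors. Its increase was the smallest among members that passed, at 0.60 ± 0.18 (SE; adjusted p = 0.0284), and the groups overlapped. Bub1b (BUBR1), the other arm of the checkpoint complex, was at 87.5, 55, 77.3 and 24.8 CPM in TP1 to TP4, against a lowest, median and highest value of 13.5, 37.2 and 61.7 CPM in the GEM-BCC tumors, and did not pass at 0.80 ± 0.34 (SE; adjusted p = 0.107).

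The partners of Aurkb in the chromosomal passenger complex all passed. Incenp, the scaffold of the complex, stood at 103, 162, 108 and 153 CPM in TP1 to TP4, while the GEM-BCC tumors ran from 25.7 to 87.6 CPM (median 49.9). Birc5 (survivin), which docks the complex on centromeric histone H3, had 72.8, 80.4, 68.9 and 68.1 CPM in TP1 to TP4 and a range of 15.6 to 67.5 CPM with a median of 29.9 in GEM-BCC tumors. Cdca8 (borealin), the third non-catalytic subunit, was at 46.8, 65.9, 48.7 and 85.2 CPM in TP1 to TP4, against a lowest, median and highest value of 15.9, 30.7 and 39.4 CPM in the GEM-BCC tumors. The Tp-BCC tumors lay above the GEM-BCC tumors without overlap in all 3 genes, although by a narrow margin for Birc5. The log2 fold changes were 1.25 ± 0.26 (SE; adjusted p = 0.00414) for Incenp, 1.02 ± 0.29 (SE; adjusted p = 0.0245) for Birc5 and 1.04 ± 0.24 (SE; adjusted p = 0.0076) for Cdca8. Sgo1 (shugoshin), the guardian of centromeric cohesion, stood at 22.1, 4.63, 21.8 and 4.57 CPM in TP1 to TP4, while the GEM-BCC tumors ran from 3.65 to 13.7 CPM (median 8.94). Its Tp-BCC tumors split into a high pair, TP1 and TP3, and a low pair, TP2 and TP4, and the estimate of 0.59 ± 0.45 (SE; adjusted p = 0.366) did not pass.

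At the centromere and inner kinetochore 5 of 10 members passed. Cenpa, the histone H3 variant that marks the centromere, had 61.3, 91.6, 61.4 and 98.9 CPM in TP1 to TP4 and a range of 19.9 to 77.1 CPM with a median of 30.5 in GEM-BCC tumors. Hjurp, the chaperone that loads CENP-A, was at 150.2, 186, 139 and 160.3 CPM in TP1 to TP4, against a lowest, median and highest value of 47.3, 76.2 and 115 CPM in the GEM-BCC tumors. The Tp-BCC and GEM-BCC ranges overlapped for Cenpa, at 1.13 ± 0.33 (SE; adjusted p = 0.0256), and did not overlap for Hjurp, at 0.93 ± 0.21 (SE; adjusted p = 0.00665). Cenpt, which links centromeric DNA to the NDC80 complex, stood at 35.9, 48.4, 33.3 and 56.2 CPM in TP1 to TP4, while the GEM-BCC tumors ran from 13.2 to 28.2 CPM (median 16.7). Cenpn, a reader of CENP-A nucleosomes, had 44.7, 31.1, 37.1 and 18.3 CPM in TP1 to TP4 and a range of 5.53 to 22.4 CPM with a median of 11.9 in GEM-BCC tumors. Cenpm, a subunit of the same constitutive network, was at 26.2, 52.6, 24.2 and 47.2 CPM in TP1 to TP4, against a lowest, median and highest value of 4.64, 9.96 and 29.2 CPM in the GEM-BCC tumors. Cenpt rose without overlap by 1.25 ± 0.22 (SE; adjusted p = 0.00116), and the other two overlapped with GEM-BCC in 1 tumor or more, with log2 fold changes of 1.35 ± 0.31 (SE; adjusted p = 0.00778) for Cenpn and 1.57 ± 0.41 (SE; adjusted p = 0.0146) for Cenpm. Cenpb, which binds a centromeric DNA motif, was at 241, 556, 256 and 754 CPM in TP1 to TP4, against a lowest, median and highest value of 212, 293 and 452 CPM in the GEM-BCC tumors, and did not pass, at 0.51 ± 0.30 (SE; adjusted p = 0.236). Of the remaining subunits, Cenpi, Cenpk, Cenph and Cenpx had log2 fold changes of 1.08, 1.10, 0.65 and 0.53 and did not pass. Cenpk and Cenph were among the members with few reads, with a median of 1.84 and 3.6 CPM in GEM-BCC tumors.

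Of 10 outer kinetochore members, which contact microtubules, 4 passed. Ska1, a subunit of the SKA complex that tracks shortening microtubule ends, stood at 42, 45.2, 45.6 and 56.1 CPM in TP1 to TP4, while the GEM-BCC tumors ran from 2 to 8.86 CPM (median 4.08). The lowest Tp-BCC tumor lay above the highest GEM-BCC tumor. Before GC correction the 4 Tp-BCC tumors lay close together, with an SD of log2 CPM of 0.179. With the GC trend removed, the SD of Ska1 in these tumors was 0.883. Its log2 fold change was 3.37 ± 0.34 (SE; adjusted p = 8.79e-06), the largest of the 56. The 10 tested genes nearest to Ska1 on its chromosome, 5 on each side in the RefSeq order of GRCm38.p6, had a median log2 fold change of −0.97 (range −2.98 to 2.75). Nuf2 and Spc25, subunits of the NDC80 complex, passed with 1.08 ± 0.31 (SE; adjusted p = 0.0254) and 1.13 ± 0.34 (SE; adjusted p = 0.0301). Nuf2 had 32.4, 12.7, 31.7 and 16.8 CPM in TP1 to TP4 and a range of 5.17 to 17.2 CPM with a median of 10.2 in GEM-BCC tumors. Spc25 was at 35.9, 15.8, 34.1 and 31.1 CPM in TP1 to TP4, against a lowest, median and highest value of 5.5, 13.3 and 23.7 CPM in the GEM-BCC tumors. The other 2 subunits, Ndc80 and Spc24, did not pass, at 0.70 ± 0.43 (SE; adjusted p = 0.255) and 0.50 ± 0.39 (SE; adjusted p = 0.387). Pmf1, of the MIS12 complex that joins inner and outer kinetochore, stood at 80.4, 129.9, 62.9 and 168 CPM in TP1 to TP4, while the GEM-BCC tumors ran from 26 to 74.5 CPM (median 34.2). Of the Tp-BCC tumors TP3 alone lay below the highest GEM-BCC tumor, and Pmf1 rose by 1.39 ± 0.30 (SE; adjusted p = 0.00517).

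The large outer kinetochore proteins varied widely. Cenpf, a corona protein, had 50.5, 3.6, 100 and 5.07 CPM in TP1 to TP4 and a range of 11.9 to 47.9 CPM with a median of 24.8 in GEM-BCC tumors. Cenpe, a kinetochore kinesin, was at 23.5, 2.38, 53.1 and 8.85 CPM in TP1 to TP4, against a lowest, median and highest value of 5.08, 12.5 and 23 CPM in the GEM-BCC tumors. In both genes TP3 was the highest of 13 tumors and TP2 the lowest, and the log2 fold changes of 0.68 and 0.84 had SE of 0.63 and 0.57. Knl1, the scaffold for the checkpoint kinases, stood at 22.8, 3.41, 45.5 and 4.07 CPM in TP1 to TP4, while the GEM-BCC tumors ran from 4.13 to 23 CPM (median 9.46), again with TP3 the highest and TP2 the lowest tumor, and did not pass at 0.87 ± 0.56 (SE; adjusted p = 0.285). Zwint, its partner, had 40.7, 27.1, 34.8 and 36.3 CPM in TP1 to TP4 and a range of 22.9 to 44.2 CPM with a median of 29.6 in GEM-BCC tumors, and had the lowest estimate at 0.17 ± 0.21 (SE; adjusted p = 0.596).

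Of 7 mitotic kinesins 1 passed, a share near the 11.1% of all genes tested that passed as higher. Kif20a (MKLP2), which carries the passenger complex to the midzone, was at 167, 99.1, 151 and 39.8 CPM in TP1 to TP4, against a lowest, median and highest value of 23.2, 56.7 and 97.3 CPM in the GEM-BCC tumors. TP4 was within the range of GEM-BCC tumors and the other Tp-BCC tumors above it, and the estimate was 1.09 ± 0.34 (SE; adjusted p = 0.0376). Kif11 (Eg5), which pushes spindle poles apart, stood at 53.7, 6.62, 77.6 and 6.07 CPM in TP1 to TP4, while the GEM-BCC tumors ran from 9.87 to 53.8 CPM (median 22.1). TP2 and TP4 were the lowest of the 13 tumors, TP3 was the highest, and Kif11 did not pass, at 0.52 ± 0.57 (SE; adjusted p = 0.539). Kif15, which can share the work of Eg5, and the chromokinesin Kif4 had the same highest and lowest tumors, with log2 fold changes of 0.36 and 0.31. Kif23, Kif14 and Kif2c, which act in cytokinesis and at kinetochores, had larger estimates of 1.07, 0.95 and 0.78 and did not pass.

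The condensins, topoisomerase II and the chromosome surface gave 2 of 7. Ncapd2 and Ncaph, regulatory subunits of condensin I, passed. Ncapd2 had 167, 272, 161 and 268 CPM in TP1 to TP4 and a range of 32.3 to 139.8 CPM with a median of 73.2 in GEM-BCC tumors, and rose without overlap by 1.43 ± 0.29 (SE; adjusted p = 0.00392). Ncaph was at 82.2, 71.6, 76.5 and 45.5 CPM in TP1 to TP4, against a lowest, median and highest value of 13.7, 28.4 and 60.6 CPM in the GEM-BCC tumors, with 1.07 ± 0.31 (SE; adjusted p = 0.0252). Ncapg, the third regulatory subunit, did not pass at 0.94 ± 0.49 (SE; adjusted p = 0.185). Smc2 and Smc4, the ATPase core of both condensins, did not pass at 0.30 ± 0.56 (SE; adjusted p = 0.738) and 0.73 ± 0.49 (SE; adjusted p = 0.309). Smc2 stood at 30.8, 2.96, 61.4 and 10.4 CPM in TP1 to TP4, while the GEM-BCC tumors ran from 8.96 to 35.7 CPM (median 23.6). Top2a, which untangles sister chromatids, had 259, 26.3, 309 and 34 CPM in TP1 to TP4 and a range of 45.6 to 231 CPM with a median of 114 in GEM-BCC tumors. Mki67 (Ki-67), the surfactant of mitotic chromosomes and a common marker of cycling cells, was at 179, 16.1, 404 and 63.5 CPM in TP1 to TP4, against a lowest, median and highest value of 37.9, 101 and 178 CPM in the GEM-BCC tumors. In each of these 3 genes TP3 was the highest tumor and TP2 the lowest of 13. The log2 fold changes were 0.33 ± 0.56 (SE; adjusted p = 0.707) for Top2a and 0.70 ± 0.58 (SE; adjusted p = 0.414) for Mki67, and neither passed.

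Neither gene of the step that cuts cohesin passed. Espl1 (separase), the protease that opens cohesin, stood at 106, 193, 117 and 213 CPM in TP1 to TP4, while the GEM-BCC tumors ran from 51.2 to 183 CPM (median 134), at 0.37 ± 0.30 (SE; adjusted p = 0.409). Pttg1 (securin), its inhibitor, had 22.3, 24.4, 17 and 34.3 CPM in TP1 to TP4 and a range of 7.09 to 34.3 CPM with a median of 10.6 in GEM-BCC tumors, at 0.84 ± 0.35 (SE; adjusted p = 0.101). The Tp-BCC and GEM-BCC ranges overlapped in both.

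Of 6 proteins of spindle assembly, midzone and cytokinesis 1 passed (background 11.1%). Racgap1, which with Kif23 forms centralspindlin, was at 161, 207, 141 and 118 CPM in TP1 to TP4, against a lowest, median and highest value of 25.6, 59 and 91.7 CPM in the GEM-BCC tumors. The groups did not overlap, and Racgap1 rose by 1.42 ± 0.25 (SE; adjusted p = 0.00122). Of the words of 100 bases of the longest Racgap1 transcript, 4.81% also occur in transcripts of another gene, the highest share among the members. Its partners at the midzone and in the contractile ring, Prc1, Ect2 and Anln, had log2 fold changes of 0.99, 1.01 and 1.07 with SE of 0.45, 0.48 and 0.51 and did not pass. Anln (anillin) stood at 107, 18.1, 113 and 10.5 CPM in TP1 to TP4, while the GEM-BCC tumors ran from 10.4 to 53.5 CPM (median 30.9). Nusap1, a microtubule bundler, and Tpx2, the activator of Aurora A, did not pass at 1.14 ± 0.41 (SE; adjusted p = 0.0635) and 0.59 ± 0.45 (SE; adjusted p = 0.372). Cdca3, an adaptor that promotes mitotic entry, had 80.5, 88.3, 67.2 and 72.6 CPM in TP1 to TP4 and a range of 16.4 to 91.5 CPM with a median of 30.6 in GEM-BCC tumors, and passed at 1.03 ± 0.33 (SE; adjusted p = 0.0394) with overlapping groups.

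With each tumor left out in turn, 14 of the 23 members passed in all 13 fits and 9 did not. The call of Birc5, Cenpa and Cenpm was lost without TP2 or TP4, that of Nuf2 without TP1 or TP3, and that of Ncaph without TP1, TP2 or TP3. Bub3 was lost without GEM7, TP2 or TP4, and Spc25 without GEM4, GEM9, TP1, TP3 or TP4. Kif20a was lost without GEM2, GEM4, GEM5, GEM6, GEM7, GEM9, TP1, TP2 or TP3, and Cdca3 without GEM1, GEM2, GEM4, GEM5, GEM6, GEM7, GEM9, TP1, TP2 or TP4. The highest adjusted p in these fits was 0.0794 for Birc5, 0.0975 for Cenpa, 0.0665 for Cenpm, 0.088 for Nuf2, 0.0702 for Ncaph, 0.124 for Bub3, 0.0797 for Spc25, 0.123 for Kif20a and 0.121 for Cdca3.

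The members that passed were mostly those with GC-rich transcripts. Transcript GC content, the median over protein-coding transcripts in GENCODE vM21, ran from 36.3% for Cenpk to 58.5% for Pmf1. Among the 28 members of lower GC content (36.3% to 47.5%) 4 passed, namely Mad2l1, Nuf2, Spc25 and Ska1, and among the 28 of higher GC content (47.8% to 58.5%) 19 passed. The median estimates of the lower-GC and higher-GC members were 0.95 and 1.06. Their spread between Tp-BCC tumors differed, with a median SD of log2 CPM of 1.42 in the lower-GC and 0.411 in the higher-GC members. In GEM-BCC tumors the same SDs were 0.705 and 0.578. TP1 or TP3 was the highest Tp-BCC tumor for 26 of the 28 lower-GC members and 7 of the 28 higher-GC members. Over all 56 members, TP2 and TP4 were both below TP1 and TP3 in 31 and both above in 17.

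**Figure D3:**
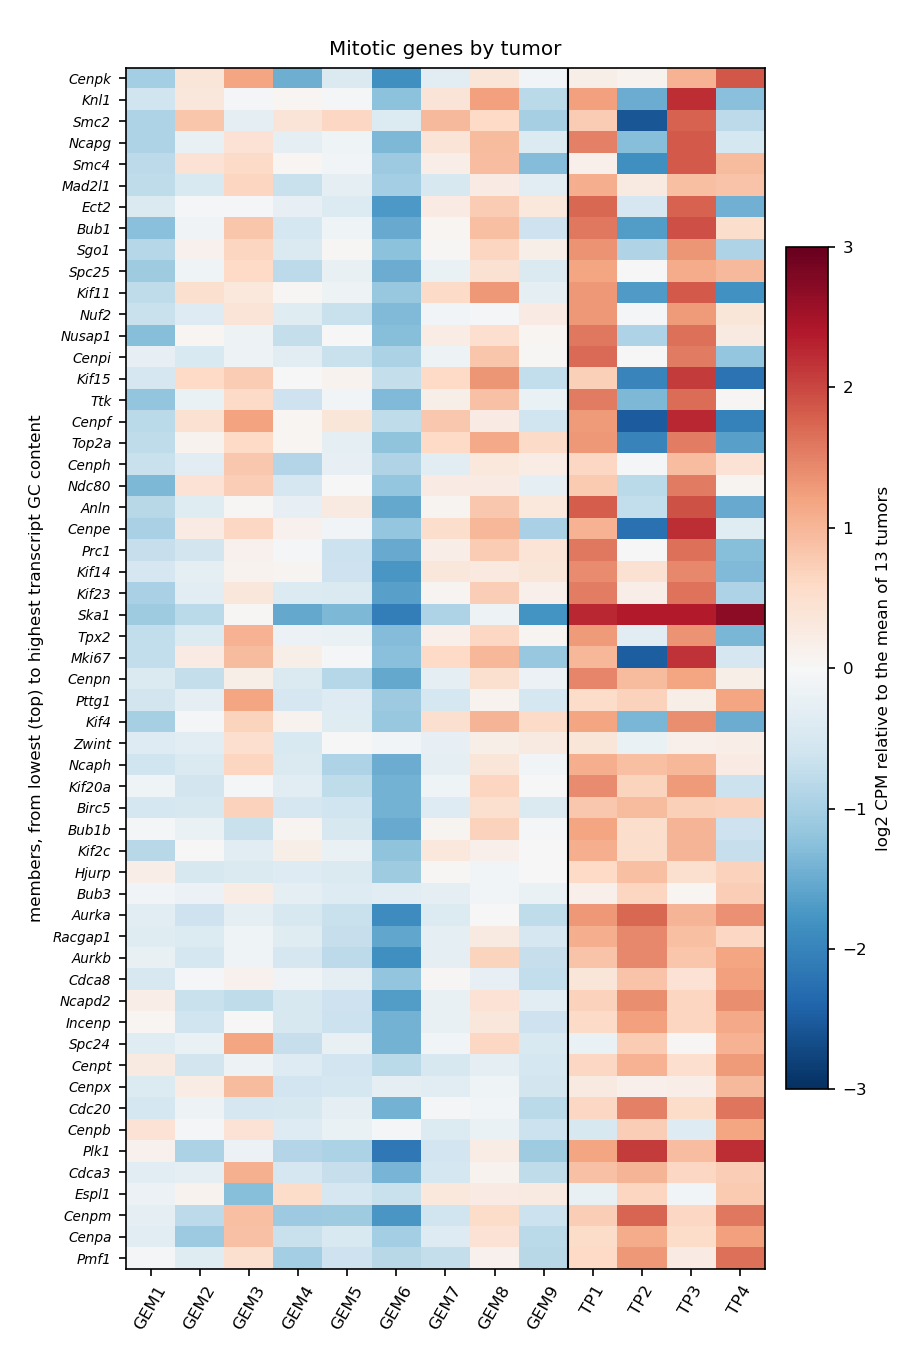
Log2 CPM of the 56 members (rows, from the lowest to the highest transcript GC content) in 13 tumors (columns), each minus the average of its row. In the upper rows TP1 and TP3 are red and TP2 and TP4 mostly blue, in the lower rows all 4 Tp-BCC tumors are mostly red with TP2 and TP4 the deeper, and Ska1 is red in all 4.

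The deviation of a member from its Tp-BCC mean followed GC content in each Tp-BCC tumor. Across the 56 members, which share a library in each case and are not independent, Pearson's r was −0.673 in TP1, 0.770 in TP2, −0.755 in TP3 and 0.486 in TP4. Members of lower GC content also had longer annotated transcripts (median 3164 bases, against 1704.5 in the others). With log2 transcript length r was 0.431 in TP1, −0.451 in TP2, 0.471 in TP3 and −0.342 in TP4, so the trends overlap. Like GC content, length was the median over annotated protein-coding transcripts, which need not be those expressed here. For Anln, for example, it was 718 bases. The GC trend was not limited to mitotic genes. Over 14095 tested genes with a GC value, Spearman's rho between GC content and the level minus the gene's mean was −0.389 in TP1, 0.594 in TP2, −0.473 in TP3 and 0.591 in TP4. In GEM-BCC tumors it was 0.365 in GEM1 and between −0.312 and −0.150 in the others.

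**Figure D4:**
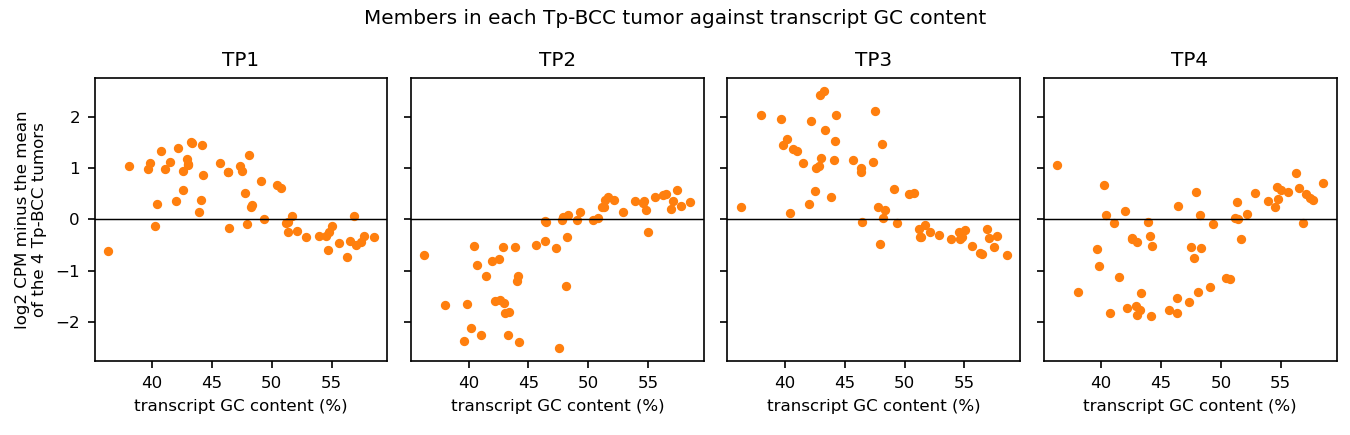
Log2 CPM of each of the 56 members minus its mean over the 4 Tp-BCC tumors, against transcript GC content, in 1 panel per Tp-BCC tumor. Points fall from left to right in TP1 and TP3 and climb in TP2 and TP4.

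Removal of each tumor's trend with GC content changed how many members passed. With the trend as an offset in the same edgeR model, 39 of the 56 passed as higher (69.6%, against a background of 15.2%) and 0 as lower (background 13.6%), with a median log2 fold change of 1.09. Of the lower-GC and higher-GC members 19 and 20 then passed. Of the 23 that passed before, 21 passed again, and Cenpa (0.82) and Cdca3 (0.80) did not. Among the 18 that passed only then were Ttk (1.25, adjusted p = 0.0144), Bub1 (1.40, adjusted p = 0.0124), Nusap1 (1.47, adjusted p = 0.00158), Kif23 (1.26, adjusted p = 0.00821) and Cenpi (1.27, adjusted p = 0.00561). Plk1 was at 1.94 and Ska1 at 4.01, so Ska1 alone remained above a log2 fold change of 2. Top2a (0.35), Mki67 (0.80), Kif11 (0.50), Cenpf (0.57), Smc2 (0.27) and Espl1 (0.01) did not pass with the correction either. With transcript length corrected in place of GC content, 29 members passed as higher (background 14.6%) and 0 as lower (background 9.59%). With both corrected, a choice made after the data were seen, 41 members passed (background 17.1%). Every Tp-BCC tumor lay above every GEM-BCC tumor in 16 members after the GC correction (28.6%, background 8.56%).

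The result was also computed without TP2 and TP4, and without TP1 and TP3, a choice made after the GC trends had been seen. With TP1 and TP3 alone 28 members passed as higher and 0 as lower (background 5.87% higher). With TP2 and TP4 alone 17 passed as higher (background 19.1%) and 7 as lower (background 23.8%). These pairs were formed from the trend with GC content, and the values are not GC-corrected. The choice of tumors itself therefore sets lower-GC members high in TP1 and TP3 and low in TP2 and TP4. Nothing is read from the counts called higher or lower in either pair. Both fits also used the same GEM-BCC tumors, so they are not independent. Aurka, Plk1, Cdc20, Cenpt, Ska1 and Racgap1 passed as higher in both. The share of all genes that did so is not given here, so passing in both is not read as a repeat. Some marker sums, which were not GC-corrected, moved with the same split. For basal epithelium and BCC markers the summed CPM was 18427 in TP2 and 22543 in TP4, against 10814 in TP1 and 10268 in TP3. For fibroblast markers it was 25267 and 31340 against 15487 and 15695, for skeletal muscle markers 10.7 and 132 against 1.88 and 2.09, and for adipocyte markers 88.4 and 15.5 against 10.8 and 10.7. T cell sums (10.9 and 13.3 against 6.48 and 5.81) and B cell sums (0.964 and 1.14 against 0.648 and 0.958) also separated the pairs, at low levels. Macrophage sums (221 and 320 against 246 and 246) did not. Nor did endothelial sums (413 and 347 against 346 and 349.5) or neutrophil sums (1.54 and 2.57 against 1.24 and 1.68). The part of these cell types in the split was not tested. What sets the Tp-BCC tumors apart by GC content was not tested either.

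The spread within models was summarized as the median over members of the SD of log2 CPM. It was 0.745 in Tp-BCC tumors (jackknife error over tumors 0.150) and 0.659 in GEM-BCC tumors (0.155). The SD was larger in Tp-BCC than in GEM-BCC tumors for 32 of 56 members. With the GC trend removed the medians were 0.539 and 0.610, and the Tp-BCC SD was larger for 28 members. Over all tested genes the corresponding medians were 0.575 and 0.435 before and 0.352 and 0.409 after removal. Over the 39 members with at least 100 counts in every tumor, with no GC correction, the medians were 0.552 and 0.611, and the Tp-BCC SD was larger for 18. The order of the models therefore depended on the correction and on the members kept, and the difference between them was within the jackknife errors. Without TP4 the Tp-BCC median was 0.552. The range over the 4 Tp-BCC tumors was above 2 log2 units for 24 members before and 8 after the trend was removed. Removal did not lower the Tp-BCC SD of every member, and that of Ska1 rose from 0.179 to 0.883. The SD also rose for Mad2l1 (0.358 to 0.835), Pttg1 (0.417 to 0.955) and Cenpk (0.832 to 1.33). Bub3, Birc5, Cenph, Spc25, Zwint and Cdca3 had higher SDs after removal as well, and the other members lower ones.

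**Figure D5:**
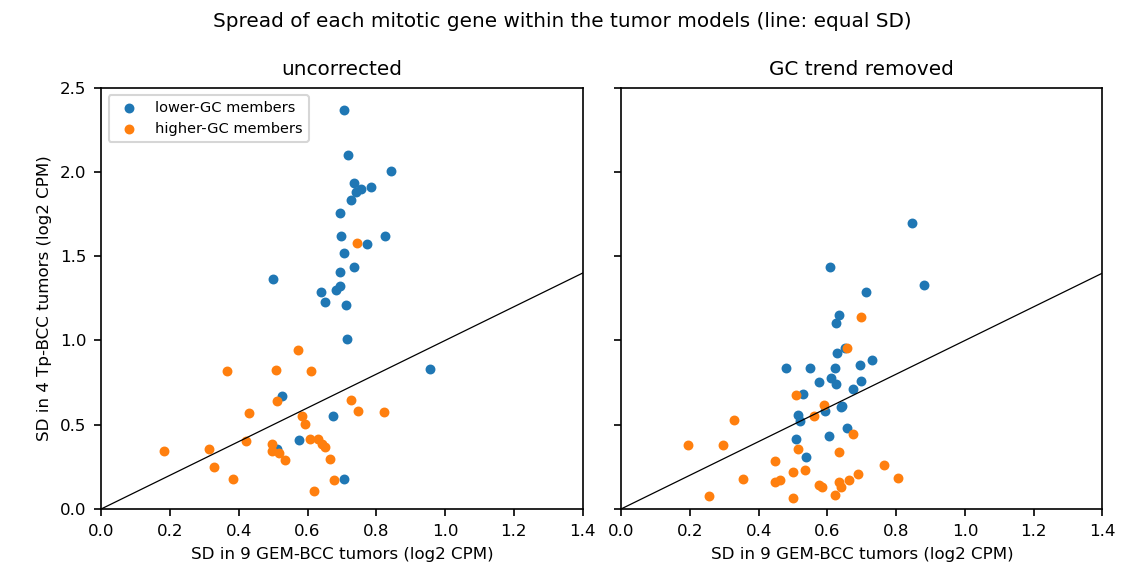
SD of log2 CPM of each member in 4 Tp-BCC tumors against the SD in 9 GEM-BCC tumors, before (left) and after (right) removal of the GC trend, with the line of equal SD. Members of lower GC content (blue) reach Tp-BCC SDs above 2 on the left, and on the right all points lie below 2.

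Among GEM-BCC tumors many members shared the highest and the lowest tumor. GEM6 was the lowest of the 9 for 44 of the 56 members, GEM8 was the highest for 27 and GEM3 for 21. GEM6 also had the highest fibroblast marker sum of the 9 (49619 CPM, next 37087 in GEM5). Its macrophage marker sum was the highest too (301 CPM, next 205 in GEM1), and its basal epithelium and BCC sum (15171 CPM) was the median. The part of cell composition in its low mitotic levels was not tested. Tumors of 1 mouse did not have equal levels. GEM3 exceeded its mate GEM2 in 46 of 56 members (median difference 0.56 in log2 CPM), and GEM8 exceeded GEM7 in 48 of 56 (median 0.61). For these counts of highest, lowest and higher tumors, the shares over all tested genes are not given here. With the counts of tumors from 1 mouse summed, 24 members passed as higher (background 10.1%) and 0 as lower (background 8.01%).

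Other genes of cell division were counted from lists written from general knowledge of the pathways. Of 86 other mitotic genes 28 passed as higher (background 11.1%) and 0 as lower (background 8.35%). Their median log2 fold change was 0.82, and 76 estimates were above 0 (48.6% of all genes). The 5 with the smallest adjusted p were Gtse1, Ube2c, Troap, Cdc25b and Kif18b. Gtse1, a microtubule-binding protein expressed in G2 and S phase, was at 36.5, 65.7, 34.2 and 64.8 CPM in TP1 to TP4, against a lowest, median and highest value of 5.71, 10.8 and 21.9 CPM in the GEM-BCC tumors. Ube2c, the E2 enzyme of the anaphase-promoting complex, stood at 204, 150.2, 115 and 154 CPM in TP1 to TP4, while the GEM-BCC tumors ran from 14.3 to 73.9 CPM (median 33.7). Cdc25b, the phosphatase that triggers mitotic entry, had 132, 217, 119 and 264 CPM in TP1 to TP4 and a range of 33.1 to 83.2 CPM with a median of 65.7 in GEM-BCC tumors. Tp-BCC tumors exceeded GEM-BCC tumors in all 3 genes, and the log2 fold changes were 2.00 ± 0.30 (SE; adjusted p = 0.000395), 2.00 ± 0.30 (SE; adjusted p = 0.000406) and 1.5 ± 0.25 (SE; adjusted p = 0.000761). With the GC correction 54 of the 86 passed as higher (background 15.2%) and 0 as lower (background 13.6%).

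Of 52 DNA replication genes 24 passed as higher (background 11.1%) and 0 as lower (background 8.35%), with a median of 0.79. The 5 with the smallest adjusted p were Asf1b, Timeless, Tyms, Pola2 and Mcm2. Asf1b, a histone chaperone of the replication fork, was at 71.5, 78.2, 52.3 and 80 CPM in TP1 to TP4, against a lowest, median and highest value of 7.6, 16.9 and 26.1 CPM in the GEM-BCC tumors, and rose by 1.99 ± 0.27 (SE; adjusted p = 0.000186). Mcm2, a subunit of the replicative helicase, stood at 265, 472, 245 and 581 CPM in TP1 to TP4, while the GEM-BCC tumors ran from 70 to 212 CPM (median 123), and rose by 1.52 ± 0.30 (SE; adjusted p = 0.0029). Both genes were higher in every Tp-BCC tumor than in any GEM-BCC tumor. With the GC correction 36 of the 52 passed (background 15.2%). Without TP2, 15 did, and the share of all genes that passed in that fit is not given here.

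Among 24 regulators of mitotic transcription 6 passed as higher (background 11.1%) and 1 as lower (background 8.35%). Foxm1, the forkhead factor of G2 and M phase genes, had 149.5, 228, 129 and 224 CPM in TP1 to TP4 and a range of 22.3 to 121 CPM with a median of 52.6 in GEM-BCC tumors, and rose by 1.63 ± 0.32 (SE; adjusted p = 0.00267). Mybl2 (B-MYB), its partner in the MuvB complex, was at 45, 70.6, 45.3 and 92.7 CPM in TP1 to TP4, against a lowest, median and highest value of 7.42, 15.3 and 30.6 CPM in the GEM-BCC tumors, and rose by 1.92 ± 0.29 (SE; adjusted p = 0.000429). The groups did not overlap in either gene. E2f8 and E2f7, repressive members of the E2F family, rose by 1.69 ± 0.34 (SE; adjusted p = 0.00368) and 1.57 ± 0.32 (SE; adjusted p = 0.0032). E2f4, the E2F of the DREAM complex, rose by 1.27 ± 0.20 (SE; adjusted p = 0.00054). E2f1, an activator of S phase genes, rose by 1.04 ± 0.30 (SE; adjusted p = 0.0254), and with the GC correction it was at 0.66 and did not pass (adjusted p = 0.0508). The gene that fell was Cdkn1a (p21), a p53 target that inhibits cyclin-dependent kinases, which stood at 14.3, 25.1, 11.8 and 32 CPM in TP1 to TP4, while the GEM-BCC tumors ran from 35.4 to 102 CPM (median 49.6). Cdkn1a was lower in every Tp-BCC tumor than in any GEM-BCC tumor, at −1.56 ± 0.37 (SE; adjusted p = 0.0101).

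The targeted genes and the cell composition were read in the same tumors. Trp53, floxed in both models, was at 24.6 ± 5.54 CPM in Tp-BCC and 44.1 ± 10.5 CPM in GEM-BCC tumors (SD, n = 4 and 9; log2 fold change −0.84, adjusted p = 0.0211). Ptch1 was at 147 ± 58.2 and 270.1 ± 103 CPM (adjusted p = 0.0809). These are counts per gene, which do not separate deleted from remaining exons. Of 12 markers of basal epithelium and BCC 0 passed, and their summed CPM was 10268 to 22543 in Tp-BCC and 12758 to 18988 in GEM-BCC tumors. With the GC correction 1 of them passed as higher, Hhip (1.44), and 1 as lower, Krt14 (−1.03). Of 8 endothelial markers 4 passed as higher, with sums of 346 to 413 against 95.9 to 255 CPM. Of 6 adipocyte markers 3 were tested and all 3 rose, with sums of 10.7 to 88.4 against 0.40 to 3.26 CPM. Fibroblast markers passed as higher in 5 and as lower in 1 of 10 (sums 15487 to 31340 against 12676 to 49619 CPM), and macrophage markers as higher in 1 of 10 (sums 221 to 320 against 91 to 301 CPM). Of 7 neutrophil markers 3 were tested and 2 were lower (sums 1.24 to 2.57 against 0.99 to 8.37 CPM), and with the GC correction 0 of them passed. Of 10 T cell markers 3 were tested and 0 passed, and of 5 B cell markers 1 was tested and did not pass, with Pax5 never above 3 counts in a tumor. Of 8 skeletal muscle markers 4 were tested and 0 passed, with a sum of 132 CPM in TP4 against 1.88 to 10.7 CPM in the other Tp-BCC tumors and 1.88 to 6.74 CPM in GEM-BCC tumors. Of all genes tested, 11.1% passed as higher and 8.35% as lower without GC correction. The part of cell composition in the levels of the mitotic genes was not tested.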

How the data were processed

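RNA from 9 GEM-BCC and 4 Tp-BCC tumors was enriched for poly(A), made into libraries and sequenced as paired reads. Per the study's methods and the labels, the authors cleaned reads with SOAPnuke, aligned them with Bowtie2 2.3.4.3 to the NCBI GRCm39 genome, and quantified them with RSEM 1.3.1. The deposited values are RSEM expected counts per gene, not rounded and not normalized. Here they were rounded to whole numbers. Of 21100 genes, 16687 had a value in all 13 tumors, and the 14390 of them that reached 10 counts in 4 or more tumors were tested. Columns were matched to tumors by name, and 0 other columns held per-sample values.

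Tp-BCC and GEM-BCC tumors were compared with edgeR 4.0.16 (R 4.3.3; TMM scaling, robust quasi-likelihood F test, two-sided, Benjamini-Hochberg adjustment over all genes tested, threshold 0.05). The fold threshold was a log2 fold change of 2, and the SE was taken as the absolute estimate over the root of its F statistic. The prior count of log2 CPM was 2. The study used DESeq2, which was run here as version 1.42.0 without shrinkage. A GC trend was fitted in each tumor by lowess (span 0.3) of log2 CPM minus the gene's mean on transcript GC content from GENCODE vM21, matched by symbol for all 56 members and 14095 tested genes. Its build is GRCm38, so no coordinates of the files were used. Promoters came from RefSeq on GRCm38.p6, and the first window listed for a gene was used. The scripts were tested on simulated data.

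The members and gene lists were chosen with earlier results of these data known. Any member could be named, in order of role. From each other list, up to 5 genes that passed were eligible in order of adjusted p, with Foxm1, Mybl2, E2f1 and E2f8 named whatever their values. E2f4, E2f7 and Cdkn1a are named as well, since all 7 regulators that passed are given.

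Alternatives were other scalings, filters, tools, GC and length corrections, tumors summed per mouse, a replicate block, and each tumor left out in turn. Intervals from replicates cover the spread between these tumors, and batch was not modelled because it is the same as the model.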

Additional observations from a re-analysis of the deposited data

Results flagged for a closer look

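A tumor far from the others of its model was looked for in 114 groups of values, and 4 were found. Chance alone gives about 1 in 20 groups, and 4 of 114 is not above that rate. GEM6 was the low tumor in 3 of them. Its log2 CPM was 2.60 for Aurka (next lowest GEM-BCC tumor 3.71), 1.76 for Kif14 (next 2.91) and 2.88 for Ect2 (next 4.17). GEM6 was the lowest GEM-BCC tumor for 44 of the 56 members, these 3 included. In Tp-BCC tumors, Cenpx was highest in TP4, with a log2 CPM of 5.79 against 5.10 in the next tumor.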

How the results depend on the processing

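The count of 23 members that passed was 22 to 29 under the other scalings, filters, tools and the length correction and with tumors summed per mouse, 18 to 25 with 1 tumor left out, 39 with the GC correction and 41 with GC and length corrected. Members past the fold threshold numbered 1 with the GC correction, and 1 (without TP4) to 3 (without TP3) with 1 tumor left out. Other mitotic genes that passed numbered 54 with the GC correction and 23 to 30 with 1 tumor left out. DNA replication genes that passed numbered 15 (without TP2) to 29 (without GEM3). The shares of all genes that passed with 1 tumor left out are not given here. The median SD within Tp-BCC tumors was 0.539 with the GC trend removed, 0.511 with GC and length removed, 0.552 over members with at least 100 counts in every tumor (0.611 in GEM-BCC tumors), and 0.552 (without TP4) to 0.768 with 1 tumor left out. The log2 fold change fell below 0 without TP3 for 9 members, which ranged with 1 tumor left out from −0.030 to 1.21 (Knl1), −0.085 to 1.19 (Cenpe), −0.33 to 1.03 (Cenpf), −0.17 to 0.87 (Kif11), −0.17 to 0.62 (Kif4), −0.82 to 0.71 (Kif15), −0.54 to 0.65 (Smc2), −0.23 to 0.67 (Top2a) and −0.24 to 1.06 (Mki67), and without TP1 for Kif4 (−0.01) and Top2a (−0.02). The labels number GEM-BCC and Tp-BCC tumors alike, but the deviations of same-numbered tumors correlated at −0.381, −0.122, −0.101 and −0.179, so the numbers do not pair the tumors. With a replicate block 1 member passed (1 past the fold threshold), as did 0 other mitotic, 0 DNA replication and 0 regulator genes, and the estimates of Cenpf (−0.47), Kif11 (−0.10), Kif4 (−0.037), Kif15 (−0.54), Smc2 (−0.083), Top2a (−0.22) and Mki67 (−0.030) were below 0. That block leaves few degrees of freedom. The cause of these shifts was not tested.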
